A study of Mus musculus with 18 samples.

Results

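Collagens are the extracellular proteins built from chains with a repeated glycine motif that wind into a triple helix. In the heart, fibrillar collagens I and III form the interstitial network around muscle bundles, type IV collagen forms the sheet of the basement membrane under endothelial cells and around each cardiomyocyte and mural cell, and type VI collagen forms beaded filaments between them. Multiplexins carry a collagen core at the basement membrane zone, and FACIT chains (fibril-associated collagens with interrupted triple helices) attach to fibrils. The collagen genes described here were the protein-coding genes with a symbol made of Col, a type number, the letter a, and a chain number in the GRCm38 annotation, which gave 44 of 34989 genes. By structure they comprised 11 fibrillar, 9 FACIT, 6 type IV, 6 type VI, 4 transmembrane, 3 short-chain network, and 2 multiplexin genes, and 3 of other kinds.

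The study stored isolated mouse hearts in the cold and then reperfused them outside the body, to compare the left ventricle (LV) and right ventricle (RV) of donor hearts after increasing cold ischemic storage. Hearts of mice given in the labels as C57B/L6 (so spelled there) and 12 weeks old were flushed with HTK (histidine-tryptophan-ketoglutarate, a preservation solution), kept in ice-cold HTK for 0, 4, or 8 h, and perfused ex vivo with Krebs buffer for 1 h before LV and RV were frozen. The 0 h group was thus flushed and perfused without a storage period, and no heart without flushing and perfusion was analysed here. Each of the 6 groups of a ventricle and a time had 3 libraries, 18 together, named here by ventricle, time, and replicate number. The study's methods give another age range and both sexes, and the labels state no sex. The labels do not state that replicates came from separate animals, so p-values measured the spread between these libraries.

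The libraries held between 22552581 (LV 8 h replicate 3) and 46236771 (LV 0 h replicate 1) estimated counts, and the 44 collagen genes took between 0.156% and 0.339% of the counts of a library. Cardiomyocyte markers were abundant in every library, with a summed level between 27780 CPM (counts-per-million) in RV 8 h replicate 3 and 67070 CPM in LV 0 h replicate 1, and Myh6, the alpha myosin heavy chain, was the most abundant of the 7. CPM values were scaled by TMM. In whole ventricular tissue, fewer cells of a type and less RNA per cell cannot be told apart. Several libraries stood apart from the others of their group. The stored libraries numbered 3 had the highest level of the interferon-induced chemokine gene Cxcl10, with 1138 CPM in LV 4 h, 1633 in LV 8 h, 1136 in RV 4 h, and 2212 in RV 8 h, against 77.5 to 447 CPM in the other stored libraries. The Y-linked gene Ddx3y was at 1.47 to 2.44 CPM in those 4 libraries and at 1.69 and 1.86 CPM in both 0 h libraries numbered 2, against 62.1 CPM or more elsewhere. In RV 8 h replicate 1 the 5 atrial markers summed to 805 CPM, against 53.5 to 376 CPM in every other library, and the 7 fibroblast markers to 1261 CPM. For collagen genes called against 0 h in a fit without pairing, the call is given with and without single libraries. Fold changes of other genes, and of collagen genes not called, are given with all libraries only. The part of these differences in the collagen results was not tested.

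Levels of different genes were compared per length, as TPM (transcripts-per-million). Col4a1 and Col4a2, the chains of the common type IV heterotrimer, ranked first and second, with mean levels of 118 TPM (57.2 to 169.5) and 83.5 TPM (46.9 to 114) over the 18 libraries. Col3a1, the chain of type III collagen, followed at 51.9 TPM, Col1a2 and Col1a1, the chains of type I collagen, stood at 33.5 and 21.4 TPM, and Col6a1 and Col6a2, which pair in type VI collagen, at 29.1 and 29.0 TPM. Col15a1, the multiplexin chain of microvascular and muscle basement membranes, stood at 28.4 TPM, a mean within the ranges of Col6a1 (21.5 to 35.8 TPM) and Col6a2 (21.6 to 36.1 TPM), so the order of these 3 genes was within their spread. All other members had a mean of 10.1 TPM (Col6a3) or less. The 6 most abundant members together took 69.4% to 74.5% of the collagen TPM of each library. At the other end, Col10a1, Col6a4, Col9a1, Col24a1, and Col19a1 each had a mean of 0.00761 TPM or less and were at 0 in 15, 14, 12, 8, and 6 libraries.

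The summed TPM of the 44 genes at 0 h was 411 ± 32.7 in LV and 383 ± 82.3 in RV (SD, n = 3), 538 ± 62.7 and 455 ± 22.8 at 4 h, and 534 ± 96.6 and 527 ± 80.3 at 8 h. Every stored LV library lay above every LV library at 0 h, while RV overlapped, since RV 0 h replicate 1 reached 474 TPM and RV 4 h ranged from 429 to 472 TPM. As CPM the sum was 1791 ± 111 and 1633 ± 268 at 0 h and 2895 ± 441 and 2965 ± 511 at 8 h. TPM is a share of each library, in which mitochondrial transcripts took 37.6% to 47.1% at 0 h and 45.9% to 51.4% at 8 h. On the TPM scale, the median log2 ratio to 0 h over all genes tested was -0.11 (LV 4 h), -0.31 (LV 8 h), -0.18 (RV 4 h), and -0.43 (RV 8 h), and that of the collagen genes exceeded it by 0.36, 0.43, 0.22, and 0.70. At 0 h the type IV class took 42.2% of collagen TPM in LV and 37.3% in RV, beside 47.3% and 45.7% at 8 h. The type VI class took 15.7% and 17.3% at 0 h, and 12.8% and 13.6% at 8 h. The fibrillar class stood between 21.7% (RV 8 h replicate 3) and 35.4% (RV 8 h replicate 1) of collagen TPM, so its lowest and highest shares came from the same group.

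**Figure D1:**
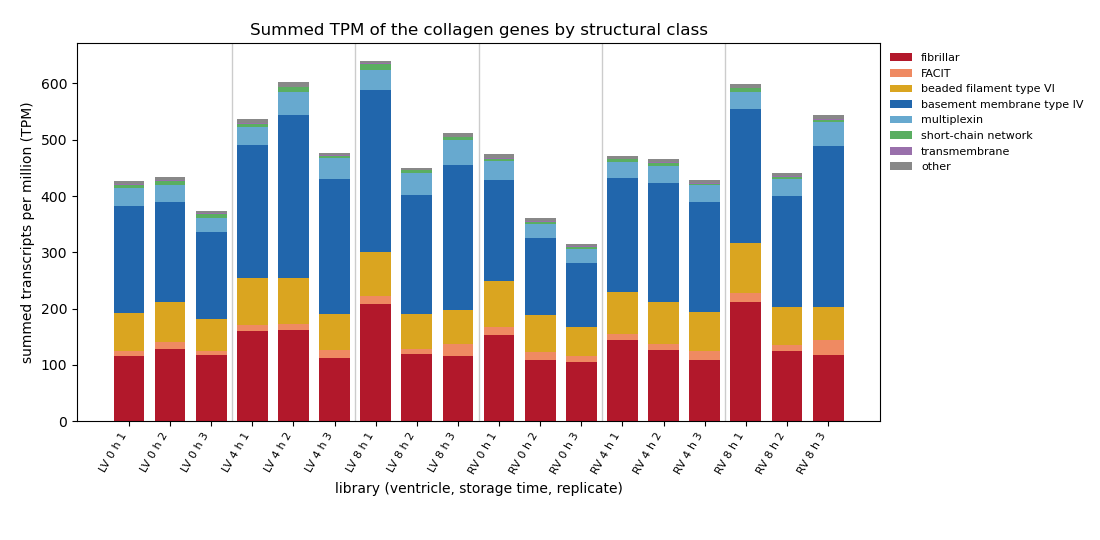
Summed TPM of the collagen genes in each of the 18 libraries, stacked by structural class, with libraries on the x axis and TPM on the y axis. The whole bar runs from 314 TPM in RV 0 h replicate 3 to 639.5 TPM in LV 8 h replicate 1, and type IV collagen (dark blue) is the largest class in every library.

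Each storage time was compared with 0 h within a ventricle, to ask how collagen transcripts differed after storage and reperfusion. Genes passed filterByExpr, were tested with edgeR's quasi-likelihood test across all genes, and were called at a Benjamini-Hochberg adjusted p under 0.1 with a fold change over 1.5. The filter kept 34 of the 44 collagen genes in every fit, and the 10 others are named with the low-level genes. In LV, 3 collagen genes were called higher at 4 h (Col4a1, Col4a2, and Col18a1), where 2.40% of the 14564 genes tested were, and 5 at 8 h (these and Col15a1 and Col27a1), where 5.46% were. In RV, 1 was called higher at 4 h (Col4a1), against 6.17% of 14622 genes, and 10 at 8 h, against 13.0%. The single call in RV at 4 h was thus a share of members below the background. With the replicate number as a block, which pairs same-numbered libraries, the RV counts were 4 at 4 h (background 8.45%) and 15 at 8 h (15.5%). Each heart was stored for 1 time, so across times this block joins different hearts. Their Ddx3y level could differ, as in RV replicate 2 with 1.86 CPM at 0 h and 100.5 CPM at 4 h. After removing group means, log2 levels of same-numbered LV libraries at 0 and 8 h correlated at values down to -0.019. LV results with the block, given below, carry this limit. No collagen gene was called lower in these 4 comparisons by edgeR or by DESeq2, and the background of lower calls by edgeR was 0.398%, 1.26%, 3.91%, and 5.26%. DESeq2 called 230 and 326 of 14564 genes lower in LV and 774 and 814 of 14622 in RV. Unadjusted p-values under 0.05 were found for 10 and 15 collagen genes in LV and 6 and 16 in RV, of 34 tested, beside 15.6%, 23.3%, 21.5%, and 30.8% of all genes, so that RV at 4 h was below the share over all genes. Col4a5 at 8 h in LV was the one with a negative fold change.

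The median log2 fold change of the 34 genes was 0.36 and 0.42 in LV and 0.22 and 0.64 in RV at 4 and 8 h, beside 0.00, -0.02, 0.00, and -0.07 over all genes tested. Fold changes above 0 were found for 29, 30, 26, and 31 of the 34 genes, beside 49.4%, 48.3%, 50.4%, and 45.0% of all genes. On the TPM scale 26, 23, 19, and 26 of the 34 ratios were above 0. Every stored library lay above every 0 h library for 9 and 17 of the 34 collagen genes in LV, where 12.9% and 15.5% of all genes did, and for 7 and 14 in RV, where 15.1% and 18.5% did. For no collagen gene did every stored library lie below every 0 h library, where 11.3% and 13.1% of all genes did in LV and 16.7% and 17.0% in RV. Both storage times of a ventricle were compared with the same 0 h libraries, so these values are not independent of each other.

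Calls depended on single libraries, and so did the share of all genes called higher, which is given in parentheses. In LV at 4 h the count was 0 without replicate 2 or 3 at 0 h (0.0945% and 0.277%) or without any of the 3 libraries at 4 h (0.486%, 1.64%, and 0.526%). In RV at 4 h it was 0 without the same-numbered RV libraries (1.57%, 1.83%, 3.32%, 4.28%, and 4.35%) or without RV 8 h replicate 1 (5.41%), 2 without RV 8 h replicate 2 (6.76%), and 4 without RV 8 h replicate 3 (8.22%). In LV at 8 h it was 1 without LV 0 h replicate 2 (0.878%), 2 without LV 0 h replicate 3 (1.58%) or LV 8 h replicate 3 (2.35%), 3 without LV 8 h replicate 1 (4.18%), 8 without LV 4 h replicate 3 (5.96%), and 10 without LV 8 h replicate 2 (9.59%). In RV at 8 h it was 4 without RV 0 h replicate 2 or 3 (6.86% and 8.11%), 6 without RV 8 h replicate 3 (8.96%), and 17 without RV 8 h replicate 2 (17.5%).

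**Figure D2:**
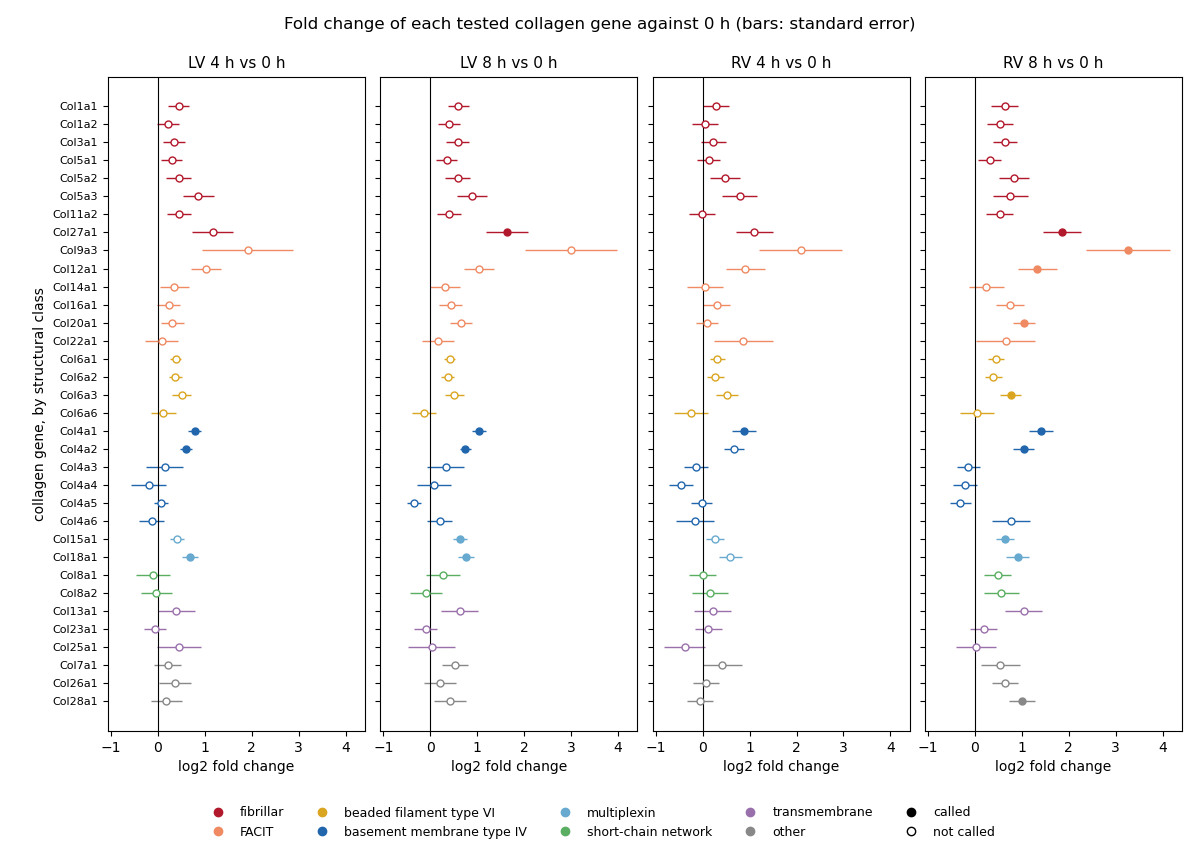
Log2 fold change against 0 h (x axis) of the 34 tested collagen genes (y axis, colored by structural class), 1 panel for each comparison, with bars for the standard error and filled points for called genes. In the RV 8 h panel 10 points are filled and 31 of 34 lie above 0, from -0.32 (Col4a5) to 3.26 (Col9a3).

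Type IV collagen showed the changes called in the most comparisons. Col4a1 (ENSMUSG00000031502.11, chr8:11198423-11312826) and Col4a2 (ENSMUSG00000031503.13, chr8:11312805-11449287) encode the alpha chains that assemble into the heterotrimer of most basement membranes. In LV, Col4a1 stood at 494, 422, and 431 CPM at 0 h, 752, 794, and 761 at 4 h, and 984, 728, and 1040 at 8 h. In RV, Col4a1 measured 428, 294, and 338 CPM at 0 h, 674, 623, and 629 at 4 h, and 908, 673, and 1198 at 8 h. All 6 stored libraries of each ventricle lay above all 3 libraries at 0 h, with no overlap. Col4a1 rose by 0.78 ± 0.15 (log2 fold change ± standard error, here and below) at 4 h and 1.03 ± 0.15 at 8 h in LV (edgeR quasi-likelihood test, Benjamini-Hochberg adjusted p = 0.0466 and 0.0128). In RV it rose by 0.88 ± 0.25 and 1.41 ± 0.25 (edgeR quasi-likelihood test, Benjamini-Hochberg adjusted p = 0.0728 and 0.00877). In LV, Col4a2 stood at 395, 347, and 339 CPM at 0 h, 516, 580.4, and 538 at 4 h, and 634, 528, and 649 at 8 h. In RV, Col4a2 measured 345, 262, and 276 CPM at 0 h, 458, 469, and 462 at 4 h, and 533, 499.5, and 755 at 8 h. Here too no stored library overlapped the 0 h libraries of its ventricle. In LV Col4a2 rose by 0.60 ± 0.13 at 4 h and 0.75 ± 0.13 at 8 h, and in RV by 1.04 ± 0.22 at 8 h (edgeR quasi-likelihood test, Benjamini-Hochberg adjusted p = 0.0613, 0.0191, and 0.0162). In RV at 4 h its difference was 0.67 ± 0.22 and was not called (edgeR quasi-likelihood test, Benjamini-Hochberg adjusted p = 0.107), while with the replicate block it was called, at 0.67.

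The Col4a1 calls at 8 h held in all 9 fits that each left out 1 library of the ventricle, with log2 fold changes of 0.92 to 1.21 in LV and 1.17 to 1.59 in RV, as did the Col4a2 call in RV (0.82 to 1.17). The Col4a2 call at 8 h in LV was lost without replicate 2 at 0 h (0.72). The 4 h calls were less stable. That of Col4a1 held in 4 of 9 such fits in LV (0.74 to 0.85), being lost without replicate 2 or 3 at 0 h or any of the 3 libraries at 4 h, and that of Col4a2 in LV was lost without the same libraries (0.55 to 0.67). In RV the 4 h call of Col4a1 held in 3 of 9 (0.76 to 1.04), being lost without replicate 2 or 3 at 0 h, any of the 3 libraries at 4 h or replicate 1 at 8 h.

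The other 4 type IV genes, which encode chains of specialised basement membranes, were not called against 0 h by edgeR. Col4a6 was called between the ventricles at 8 h with the replicate block, as given below. Col4a5 had a mean of 7.82 TPM and Col4a3, Col4a4, and Col4a6 had means of 0.749, 1.14, and 0.330 TPM. Col4a5, on the X chromosome, stood at 42.9 ± 5.57 (SD, n = 3) and 33.4 ± 5.18 (SD, n = 3) CPM in LV at 0 and 8 h, and at 39.9 ± 6.94 (SD, n = 3) and 32.0 ± 10.0 (SD, n = 3) in RV. Its log2 differences at 8 h were -0.35 ± 0.15 in LV and -0.32 ± 0.23 in RV, opposite in sign to those of Col4a1 and Col4a2 (edgeR quasi-likelihood test, Benjamini-Hochberg adjusted p = 0.189 and 0.343), and in LV the groups overlapped by 1 library each, 0 h replicate 3 at 36.6 CPM and 8 h replicate 1 at 38.3 CPM. Log2 differences at 8 h were 0.33 ± 0.40 and -0.14 ± 0.25 for Col4a3, 0.08 ± 0.37 and -0.22 ± 0.25 for Col4a4, and 0.20 ± 0.27 and 0.76 ± 0.41 for Col4a6, in LV and RV. Col4a3 and Col4a4 were lowest in the libraries numbered 3 at both stored times of both ventricles, with 2.44 to 3.45 CPM for Col4a3 and 4.45 to 8.04 CPM for Col4a4.

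Both multiplexin genes were called at 8 h in both ventricles. Col18a1 (ENSMUSG00000001435.15, chr10:77052178-77166548) encodes the basement membrane chain that releases endostatin. In LV, Col18a1 stood at 11.2, 13.6, and 11.7 CPM at 0 h, 21.6, 17.0, and 19.8 at 4 h, and 20.8, 16.2, and 24.3 at 8 h. In RV, Col18a1 measured 13.9, 12.3, and 14.8 CPM at 0 h, 22.1, 16.8, and 22.0 at 4 h, and 24.6, 17.0, and 34.2 at 8 h. Every stored library lay above the 0 h libraries of its ventricle, and RV 8 h replicate 3 was the highest. In LV Col18a1 rose by 0.69 ± 0.17 at 4 h and 0.76 ± 0.17 at 8 h, and in RV by 0.91 ± 0.25 at 8 h (edgeR quasi-likelihood test, Benjamini-Hochberg adjusted p = 0.0943, 0.0471, and 0.0443), while 0.59 ± 0.25 at 4 h in RV was not called (0.207). The call at 4 h in LV held in 2 of the 9 fits that each left out 1 library (0.60 to 0.77), being lost without any of the 3 libraries at 0 h, any of the 3 libraries at 4 h or replicate 1 at 8 h, and also with length offsets, RLE size factors, mitochondrial genes left out, or all 18 libraries in the fit. At 8 h it was lost in LV without any of the 3 libraries at 0 h or replicate 1 or 3 at 8 h (0.60 to 0.94) and in RV without any of the 3 libraries at 0 h (0.61 to 1.13).

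Col15a1 (ENSMUSG00000028339.17, chr4:47208161-47313167) encodes the other multiplexin, found between basement membranes and the fibrillar matrix. In LV, Col15a1 stood at 115, 94.1, and 84.0 CPM at 0 h, 113, 143, and 132 at 4 h, and 145, 149.5, and 161 at 8 h. In RV, Col15a1 measured 110.3, 75.4, and 75.5 CPM at 0 h, 99.2, 109.7, and 99.8 at 4 h, and 124, 130.3, and 146 at 8 h. All 8 h libraries were above all 0 h libraries of their ventricle, while the 4 h libraries overlapped them (LV 4 h replicate 1 and all 3 of RV). Col15a1 rose at 8 h by 0.64 ± 0.15 in LV and 0.63 ± 0.19 in RV (edgeR quasi-likelihood test, Benjamini-Hochberg adjusted p = 0.049 and 0.0614). The calls were lost without replicate 2 or 3 at 0 h or replicate 3 at 8 h in either ventricle (0.54 to 0.77 in LV and 0.53 to 0.84 in RV), and also without the 4 and 8 h libraries numbered 3 together (0.58 and 0.53).

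Among the 8 fibrillar genes tested, Col27a1 was called and the chains of collagens I, III, and V were not. Col27a1 (ENSMUSG00000045672.15, chr4:63214004-63334991) encodes the chain of type XXVII collagen, a fibrillar collagen known from cartilage. In LV, Col27a1 stood at 7.70, 7.43, and 7.62 CPM at 0 h, 15.7, 10.1, and 25.3 at 4 h, and 17.2, 12.9, and 40.7 at 8 h. In RV, Col27a1 measured 10.3, 8.53, and 9.08 CPM at 0 h, 17.2, 12.8, and 29.1 at 4 h, and 26.4, 19.6, and 52.4 at 8 h. No stored library overlapped the 0 h libraries, and the libraries numbered 3 were the highest at both stored times of both ventricles. Col27a1 rose at 8 h by 1.64 ± 0.44 in LV and 1.85 ± 0.41 in RV (edgeR quasi-likelihood test, Benjamini-Hochberg adjusted p = 0.0778 and 0.0188), and at 4 h its differences of 1.17 ± 0.44 and 1.10 ± 0.40 were not called (0.247 and 0.143). With the replicate block it was called in RV at 4 h, at 0.98. Without the stored libraries numbered 3 it was still called at 8 h, with 0.98 in LV and 1.29 in RV. The RV call held in all 9 fits that each left out 1 library (1.31 to 2.11), and the LV call held in 3 of 9 (0.98 to 1.99), being lost without any of the 3 libraries at 0 h, replicate 1 at 4 h or replicate 1 or 3 at 8 h.

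Col1a1 and Col1a2 encode the chains of type I collagen, the main fibrillar collagen of the heart. In LV, Col1a1 stood at 89.9, 87.1, and 86.8 CPM at 0 h, 138, 123, and 97.9 at 4 h, and 184, 100.2, and 114 at 8 h. In RV, Col1a1 measured 109.9, 69.4, and 87.3 CPM at 0 h, 122, 97.2, and 101 at 4 h, and 204, 95.0, and 114 at 8 h. Replicate 1 was the highest at 4 and 8 h in both ventricles, all stored LV libraries were above those at 0 h, and RV overlapped. In LV, Col1a2 stood at 123, 132, and 133 CPM at 0 h, 180, 154, and 117 at 4 h, and 235, 137, and 136 at 8 h. In RV, Col1a2 measured 164, 123, and 127 CPM at 0 h, 171, 135, and 119 at 4 h, and 297, 157, and 143 at 8 h. At 8 h replicate 1 stood at 235 CPM in LV and 297 CPM in RV, and the other libraries at 135.5 to 157 CPM. Log2 differences at 8 h were 0.60 ± 0.22 and 0.64 ± 0.29 for Col1a1 and 0.39 ± 0.23 and 0.53 ± 0.28 for Col1a2 in LV and RV, none called (edgeR quasi-likelihood test, Benjamini-Hochberg adjusted p = 0.155, 0.165, 0.335, and 0.222). With the replicate block Col1a1 was called in RV at 8 h, at 0.60.

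Col3a1 encodes the chain of type III collagen, which forms fibrils with type I. In LV, Col3a1 stood at 176, 179, and 183 CPM at 0 h, 277, 223, and 181 at 4 h, and 379.5, 208, and 215 at 8 h. In RV, Col3a1 measured 214, 147, and 174 CPM at 0 h, 246, 195, and 180.4 at 4 h, and 396, 210.1, and 227 at 8 h. The same library number led, with replicate 1 the highest at both stored times of both ventricles, and at 8 h it stood apart from replicates 2 and 3. Its log2 differences at 8 h were 0.58 ± 0.24 in LV and 0.64 ± 0.26 in RV, not called (edgeR quasi-likelihood test, Benjamini-Hochberg adjusted p = 0.189 and 0.136), and it was called in RV with the replicate block, at 0.61.

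Col5a1 and Col5a2 encode chains of type V collagen, which starts and limits the growth of fibrils. In LV, Col5a1 stood at 55.0, 49.5, and 50.2 CPM at 0 h, 74.7, 66.8, and 47.6 at 4 h, and 86.0, 62.5, and 48.2 at 8 h. In RV, Col5a1 measured 62.2, 44.7, and 51.9 CPM at 0 h, 68.3, 58.7, and 44.8 at 4 h, and 86.6, 65.0, and 45.1 at 8 h. Replicate 3 of the stored groups lay within the range of the 0 h libraries or below it, and the groups overlapped. In LV, Col5a2 stood at 35.0, 34.4, and 31.4 CPM at 0 h, 57.9, 47.6, and 31.5 at 4 h, and 71.1, 41.8, and 38.5 at 8 h. In RV, Col5a2 measured 37.6, 28.6, and 29.5 CPM at 0 h, 57.6, 44.4, and 30.4 at 4 h, and 86.8, 40.6, and 41.8 at 8 h. At 8 h every library of Col5a2 was above those at 0 h, with replicate 1 the highest. Log2 differences at 8 h were 0.35 ± 0.22 and 0.31 ± 0.24 for Col5a1 and 0.59 ± 0.27 and 0.82 ± 0.32 for Col5a2 in LV and RV, none called (edgeR quasi-likelihood test, Benjamini-Hochberg adjusted p = 0.364, 0.387, 0.222, and 0.116). With the replicate block Col5a2 was called in RV at 8 h, at 0.76, and Col5a3, a further type V chain, was called in RV at 4 h (0.76) and 8 h (0.76). The 8 fibrillar genes had median log2 fold changes at 4 and 8 h of 0.45 and 0.59 (LV) and 0.26 and 0.64 (RV), and Col11a2, a chain of type XI collagen, had 0.40 ± 0.25 and 0.53 ± 0.29 at 8 h.

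Of the 6 FACIT genes tested, 3 were called, all in RV at 8 h. Col9a3 (ENSMUSG00000027570.15, chr2:180597790-180622189) encodes a chain of type IX collagen, known from cartilage. In LV, Col9a3 stood at 0.558, 0.203, and 0.560 CPM at 0 h, 0.808, 0.707, and 3.60 at 4 h, and 1.57, 0.881, and 8.52 at 8 h. In RV, Col9a3 measured 0.906, 0.406, and 0.555 CPM at 0 h, 1.53, 1.28, and 5.12 at 4 h, and 2.11, 1.96, and 13.5 at 8 h. All stored libraries were above those at 0 h, and those numbered 3 stood far above, with 3.60 and 8.52 CPM in LV and 5.12 and 13.5 CPM in RV at 4 and 8 h against 0.707 to 2.11 CPM in the other stored libraries. Col9a3 rose in RV at 8 h by 3.26 ± 0.90 (edgeR quasi-likelihood test, Benjamini-Hochberg adjusted p = 0.0436), the largest fold change of a collagen gene, and was not called in LV at 8 h, at 3.0 ± 0.98 (0.12). Without RV 8 h replicate 3 the call was lost, at 1.70, and without the 4 and 8 h libraries numbered 3 together it was called at 1.68. It was also lost without replicate 2 or 3 at 0 h, over a range of 1.70 to 3.67 in the 9 fits that each left out 1 library.

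Col12a1 (ENSMUSG00000032332.17, chr9:79598991-79718831) encodes type XII collagen, which binds the surface of type I fibrils. In LV, Col12a1 stood at 1.74, 1.38, and 0.996 CPM at 0 h, 3.92, 2.44, and 2.06 at 4 h, and 3.48, 2.81, and 2.20 at 8 h. In RV, Col12a1 measured 1.93, 1.73, and 1.04 CPM at 0 h, 3.65, 2.49, and 2.56 at 4 h, and 6.28, 1.91, and 3.52 at 8 h. RV 8 h replicate 1 was the highest and RV 8 h replicate 2 lay within the 0 h range, while in LV no stored library overlapped those at 0 h. Col12a1 rose in RV at 8 h by 1.32 ± 0.42 (edgeR quasi-likelihood test, Benjamini-Hochberg adjusted p = 0.067), and differences of 1.03 ± 0.32 and 1.05 ± 0.32 in LV were not called (0.166 and 0.103). The RV call was lost without replicate 2 or 3 at 0 h or replicate 1 or 3 at 8 h (0.83 to 1.64), the lowest value being that without RV 8 h replicate 1, and without the stored libraries numbered 3 together (1.38).

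Col20a1 (ENSMUSG00000016356.18, chr2:180986535-181018363) encodes type XX collagen. In LV, Col20a1 stood at 2.35, 1.99, and 2.49 CPM at 0 h, 3.48, 2.15, and 2.79 at 4 h, and 3.67, 2.75, and 4.36 at 8 h. In RV, Col20a1 measured 2.89, 2.64, and 3.43 CPM at 0 h, 3.41, 2.80, and 3.22 at 4 h, and 5.51, 5.02, and 7.71 at 8 h. All 3 RV libraries at 8 h were above all other RV libraries, and the RV libraries at 4 h lay within the 0 h range. Col20a1 rose in RV at 8 h by 1.05 ± 0.23 (edgeR quasi-likelihood test, Benjamini-Hochberg adjusted p = 0.0179), a call that held in all 9 fits that each left out 1 library (0.82 to 1.16), and 0.65 ± 0.24 in LV was not called (0.157). Log2 differences of the other FACIT genes at 8 h in LV and RV were 0.31 ± 0.31 and 0.24 ± 0.38 for Col14a1, 0.44 ± 0.24 and 0.74 ± 0.30 for Col16a1, and 0.17 ± 0.35 and 0.66 ± 0.63 for Col22a1, of which Col16a1 in RV was called with the replicate block, at 0.71.

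Type VI collagen is assembled from 1 chain each of Col6a1, Col6a2, and Col6a3, and links cells to the interstitial matrix. In LV, Col6a1 stood at 84.2, 88.9, and 76.2 CPM at 0 h, 115, 109.6, and 98.4 at 4 h, and 117, 103, and 111 at 8 h. In RV, Col6a1 measured 102, 88.0, and 80.0 CPM at 0 h, 114, 109.7, and 107 at 4 h, and 145, 116, and 104 at 8 h. Every stored library lay above the 0 h libraries of its ventricle, by a small margin in RV (104 CPM in RV 8 h replicate 3 against 102 CPM in RV 0 h replicate 1). In LV, Col6a2 stood at 93.2, 86.3, and 78.5 CPM at 0 h, 125, 113, and 95.1 at 4 h, and 123, 106, and 103 at 8 h. In RV, Col6a2 measured 98.5, 80.5, and 79.8 CPM at 0 h, 107, 104, and 96.3 at 4 h, and 141, 104, and 92.6 at 8 h. The stored LV libraries were above those at 0 h, and the RV libraries numbered 3 overlapped them. Log2 differences at 8 h were 0.41 ± 0.11 and 0.44 ± 0.17 for Col6a1 and 0.37 ± 0.14 and 0.39 ± 0.18 for Col6a2 in LV and RV, none called, with Col6a1 in LV past the adjusted p but below the fold of 1.5 (edgeR quasi-likelihood test, Benjamini-Hochberg adjusted p = 0.0788, 0.107, 0.152, and 0.171).

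Col6a3 (ENSMUSG00000048126.16, chr1:90765923-90843971) encodes the long chain of the heterotrimer, whose end is released as endotrophin. In LV, Col6a3 stood at 51.5, 47.2, and 34.8 CPM at 0 h, 70.6, 69.1, and 49.2 at 4 h, and 75.5, 59.8, and 53.8 at 8 h. In RV, Col6a3 measured 52.1, 41.1, and 31.0 CPM at 0 h, 65.6, 59.5, and 51.1 at 4 h, and 88.2, 66.7, and 54.8 at 8 h. At 8 h no library overlapped those at 0 h in either ventricle, and replicate 1 was the highest. Col6a3 rose in RV at 8 h by 0.76 ± 0.23 (edgeR quasi-likelihood test, Benjamini-Hochberg adjusted p = 0.0563) and was not called in LV, at 0.51 ± 0.20 (0.175). The call was lost without replicate 2 or 3 at 0 h or replicate 1 at 8 h (0.58 to 0.96), the lowest value being that without RV 8 h replicate 1. Col6a6, a chain related to Col6a3, had -0.13 ± 0.26 and 0.04 ± 0.37 at 8 h in LV and RV and was not called.

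Col8a1, a short-chain network collagen of vessel walls and the heart, was named whatever its change. In LV, Col8a1 stood at 22.4, 30.4, and 25.9 CPM at 0 h, 27.0, 32.3, and 13.9 at 4 h, and 47.4, 27.1, and 19.9 at 8 h. In RV, Col8a1 measured 13.4, 15.9, and 15.6 CPM at 0 h, 18.4, 17.3, and 8.83 at 4 h, and 28.5, 14.98, and 18.9 at 8 h. The stored libraries overlapped those at 0 h in both ventricles, with log2 differences at 8 h of 0.27 ± 0.36 in LV and 0.48 ± 0.29 in RV (edgeR quasi-likelihood test, Benjamini-Hochberg adjusted p = 0.67 and 0.276). Col28a1 (ENSMUSG00000068794.7, chr6:7997808-8192617) encodes type XXVIII collagen, described at glial cells of peripheral nerve. In LV, Col28a1 stood at 0.950, 1.32, and 0.871 CPM at 0 h, 1.06, 1.51, and 0.956 at 4 h, and 1.23, 1.02, and 1.96 at 8 h. In RV, Col28a1 measured 0.994, 1.05, and 0.914 CPM at 0 h, 0.974, 1.05, and 0.796 at 4 h, and 2.14, 1.47, and 2.22 at 8 h. All 3 RV libraries at 8 h were above all others of RV, and the LV groups overlapped. Col28a1 rose in RV at 8 h by 0.99 ± 0.28 (edgeR quasi-likelihood test, Benjamini-Hochberg adjusted p = 0.0458), from a mean of 37.3 counts a library. The call was lost without any of the 3 libraries at 0 h or replicate 1 or 3 at 8 h (0.88 to 1.16), without the stored libraries numbered 3 (0.86), and with length offsets.

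The 6 remaining members passed the filter at low levels and were not called against 0 h by edgeR. They were Col7a1 of anchoring fibrils, Col8a2, Col13a1, Col23a1, Col25a1, and Col26a1, with mean levels of 1.17, 0.182, 0.444, 0.570, 0.179, and 3.71 TPM. Col23a1 was called between the ventricles with the replicate block, as given below. Their log2 differences at 8 h ran from -0.10 ± 0.24 (Col23a1) to 0.63 ± 0.40 (Col13a1) in LV and from 0.03 ± 0.43 (Col25a1) to 1.04 ± 0.40 (Col13a1) in RV. The 10 genes that did not pass the filter were Col2a1, Col6a4, Col6a5, Col9a1, Col9a2, Col10a1, Col11a1, Col17a1, Col19a1, and Col24a1, of which the highest estimated count in any library was 15 (Col17a1). Col2a1 and Col11a1, the main cartilage fibril chains, had highest counts of 5 and 10, and Col10a1, the marker of hypertrophic cartilage, of 1. These 10 genes were not tested.

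The 8 h libraries were also compared with the 4 h libraries, to ask whether collagen genes differed between the storage times. No collagen gene was called in LV or RV by edgeR's quasi-likelihood test, and 0% of all genes were, and none with the replicate block. Unadjusted p-values under 0.05 were found for 1 collagen gene in LV (Col4a5, -0.43 ± 0.15) and 3 in RV (Col20a1, 0.95 ± 0.23; Col28a1, 1.05 ± 0.28; Col4a6, 0.92 ± 0.41), beside 8.10% and 6.57% of all genes. DESeq2 called 0 collagen genes in LV, where it called 0.474% of all genes, and 1 in RV (Col20a1, 0.98), where it called 0.335%. The median log2 difference of the 34 genes was 0.15 in LV and 0.37 in RV, beside 0.03 and 0.01 over all genes, and 25 and 30 were above 0. In RV every 8 h library lay above every 4 h library for Col4a2, Col15a1, Col20a1, Col26a1, and Col28a1, 5 of 34 where 6.0% of all genes did, and in LV for Col15a1, 1 of 34 where 5.38% did, while Col4a5 lay below in every LV library at 8 h, 1 of 34 where 7.59% did.

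LV was compared with RV at each storage time, to ask whether collagen levels differed between the ventricles. At 0, 4, and 8 h edgeR's quasi-likelihood test called 0 collagen genes, where it called 0.159%, 0.0133%, and 0.0331% of 15093 genes, and unadjusted p-values under 0.05 were found for 1, 1, and 3 of 34, beside 3.21%, 2.96%, and 11.1% of all genes. DESeq2 called 0, 0, and 1, the last being Col20a1 at -0.80, where it called 0.411%, 0.166%, and 1.25% of all genes. With storage time and replicate number together as a block, which pairs same-numbered libraries of LV and RV, 1, 3, and 5 collagen genes were called, where 1.85%, 1.93%, and 8.78% of all genes were. These were Col8a1 at 0 h (0.80, higher in LV), Col8a1 (0.70), Col9a3 (-0.71), and Col23a1 (-0.63) at 4 h, and Col20a1 (-0.76), Col23a1 (-0.72), Col4a6 (-0.79), Col9a3 (-0.71), and Col6a6 (-0.61) at 8 h, negative values being lower in LV. At 0 h Col8a1 stood at 22.4, 30.4, and 25.9 CPM in LV and 13.4, 15.9, and 15.6 in RV without overlap. All LV libraries lay above all RV libraries for 1 collagen gene at 0 h (Col8a1), 5 at 4 h (Col4a1, Col4a2, Col4a5, Col13a1, and Col15a1), and 0 at 8 h, beside 4.71%, 4.75%, and 5.16% of all genes. They lay below for 3, 1, and 3, beside 5.39%, 4.62%, and 5.94% of all genes. Without LV 8 h replicate 3, 1 collagen gene was called at 8 h in place of 0. The share of all genes called in that fit is not given, so this count is not read as a result about collagen genes.

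Whether the change at 8 h differed between the ventricles was tested as an interaction. No collagen gene was called by edgeR's quasi-likelihood test or by DESeq2, 0 had an unadjusted p under 0.05 (beside 4.16% of all genes), and 0% and 0.0133% of all genes were called by the 2 tools. The difference of the log2 fold changes (LV minus RV) was -0.36 ± 0.28 for Col4a1, -0.27 ± 0.23 for Col4a2, -0.38 ± 0.32 for Col20a1, and -0.56 ± 0.40 for Col28a1. Its median over the 34 genes was -0.18, with 8 above 0, beside 0.03 over all genes tested. The larger number of calls in RV than in LV at 8 h was therefore not matched by a difference that passed these tests, in which LV and RV libraries were not paired.

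Replicate numbers were shared by the ventricles in the order of levels. At 8 h the same-numbered library had the highest CPM in both ventricles for 31 of the 34 genes, number 1 for 15 and number 3 for 16, and at 4 h and 0 h for 26 and 25. The share over all genes is not given, so these counts are not read as particular to collagen genes. Log2 levels of same-numbered LV and RV libraries, after removing group means, correlated at 0.531 to 0.697 at 8 h. At 8 h number 1 was the highest for Col1a1, Col1a2, Col3a1, Col5a1, Col5a2, Col5a3, Col12a1, and the type VI genes, and number 3 for Col4a1, Col4a2, Col15a1, Col18a1, Col27a1, Col9a3, Col20a1, and Col28a1. The exceptions were Col23a1, Col4a3, and Col4a6. Without the stored libraries numbered 3, 7 and 8 collagen genes were called at 4 and 8 h in LV, where 660 and 695 of 14674 genes were called higher, and 5 and 9 in RV, where 1189 and 1598 of 14685 were. The count was 0 between 8 and 4 h in either ventricle. This alternative was chosen after the values were seen.

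**Figure D3:**
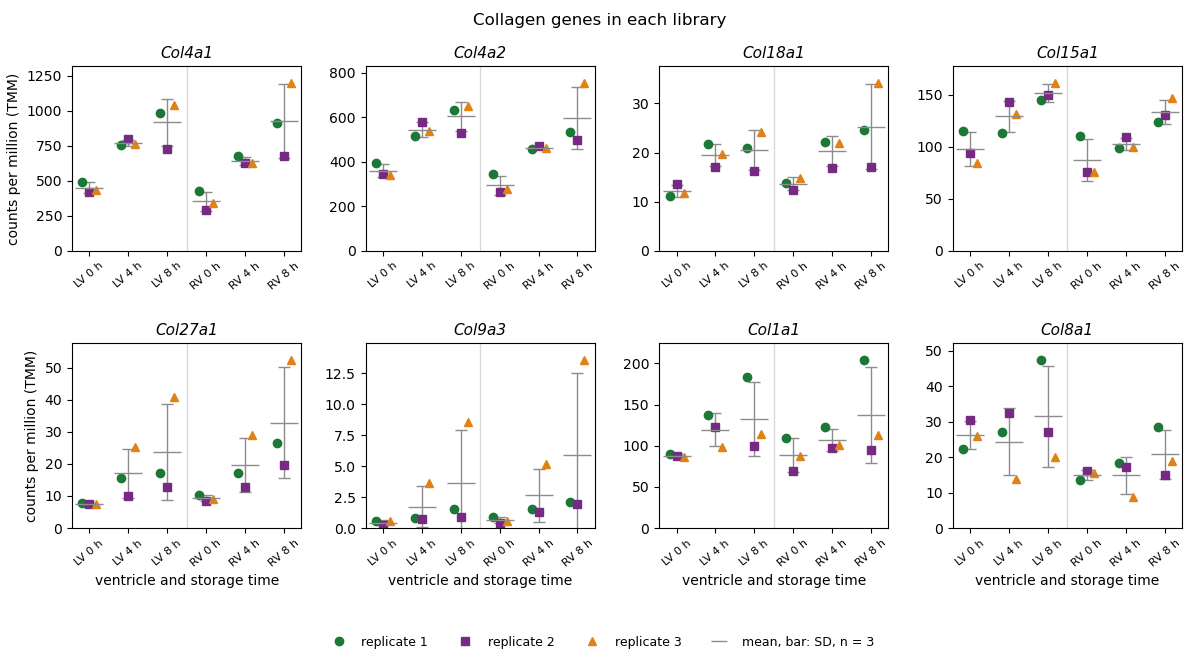
CPM (y axis, linear, its own range in each panel) of 8 collagen genes against ventricle and storage time (x axis), with a marker shape for each replicate number and bars for the mean and SD (n = 3). At 8 h replicate 3 is the highest for Col4a1 (1040 CPM in LV and 1198 in RV) and replicate 1 for Col1a1 (184 and 204).

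The files listed 216 transcripts of the 44 genes, and estimated counts were summed over them. The main coding transcript of Col4a1 took 87.8% to 99.7% of the TPM of the gene over the 18 libraries. For Col15a1 a short coding transcript ranged from 0% to 41.6%, with 36.5% in LV 8 h replicate 3, 36.2% in RV 8 h replicate 3, and 41.6% in RV 0 h replicate 3, while it took 4.06% of the gene's counts. The main transcript of Col18a1 ranged from 45.2% to 83.1% of the TPM of Col18a1, and a retained-intron transcript of Col6a3 from 7.88% to 56.4% of the TPM of Col6a3. The share of counts on transcript types other than protein-coding was 92.6% for Col26a1, 41.4% for Col16a1, 35.9% for Col9a3, 28.2% for Col27a1, and 0.548% for Col4a1. Shares of transcripts within a gene were not tested for change.

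The type IV genes lie in head-to-head pairs, and Col4a1, called in all 4 comparisons with 0 h, and Col4a2, called in 3 of them as Col18a1 was, are such a pair, which is why their starts are shown. In the GRCm38.p6 assembly with RefSeq sequence, Col4a1 (minus strand) and Col4a2 (plus strand) share 22 bases at their starts, chr8:11312805-11312826, plus strand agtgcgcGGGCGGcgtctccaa, with 72.7% GC and 1 GC box (GGGCGG). Reads from these bases fit both genes unless strand is used, and the pseudoalignment divides reads that fit several transcripts. Col4a4 (minus) and Col4a3 (plus), at chr1:82586850-82586920, lie 71 bases apart, and Col4a6 (minus) and Col4a5 (plus) on the X chromosome lie 1308 bases apart. Col3a1 and Col5a2 lie tail to tail 24614 bases apart on chromosome 1, and Col6a2 and Col6a1 on the same strand of chromosome 10. Promoter windows of 300 bases (250 before and 50 after the start) were matched for 35 members, 8 of them called. The CCAAT box (CCAAT) was found in 12 of 35 and 3 of 8 (37.4% of 32851 promoters), the GC box (GGGCGG) in 22 and 4 (35.7%), and the TATA box (TATAAA) in 5 and 0 (13.6%). The AP-1 site (TGANTCA) was found in 1 and 0 (7.81%), the E-box (CACGTG) in 0 and 0 (7.15%), and the STAT site (TTCNNNGAA) in 2 and 1, Col28a1 (8.30%). The median GC content was 60% in the 35 windows and 59% in the 8, against 52.67% over all promoters, and matches were not adjusted for it. The windows of Col4a1 and Col4a2 overlap, and the GC box at chr8:11312812-11312817 was counted for both. Such matches describe sequence alone, and no binding was measured.

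Genes that make, cross-link, bind, and degrade collagen were described as lists from general knowledge, with counts in the order LV 4 h, LV 8 h, RV 4 h, and RV 8 h against the shared 0 h libraries of each ventricle. Of all genes tested, 2.40%, 5.46%, 6.17%, and 13.0% were called higher in that order, and 3.91% lower in RV at 4 h. Of 21 synthesis and folding genes tested, 1, 1, 1, and 5 were called higher and 0, 0, 1, and 0 lower (Colgalt2 in RV at 4 h, -0.74), with medians of 0.05, 0.06, 0.09, and 0.09, and the largest in RV at 8 h were Creb3l1 1.66, Serpinh1 0.91, P4ha1 0.84, and Plod3 0.83. Of 15 genes for procollagen processing and cross-linking, 2, 4, 3, and 6 were called higher (medians 0.24, 0.49, 0.18, and 0.51), led in LV at 8 h by Loxl4 1.95, Lox 1.80, Tgm2 1.29, and Loxl2 0.69 and in RV by Loxl4 3.03, Tll1 2.41, Lox 2.36, and Tgm2 1.80. Of 17 fibril-associated proteins, 3, 5, 2, and 5 were called higher (medians 0.17, 0.35, 0.08, and 0.42), with Tnc 2.99, Thbs1 1.77, Comp 1.12, and Postn 0.80 in LV and Tnc 3.56, Thbs1 3.34, Postn 1.21, and Fn1 1.00 in RV at 8 h. Of 15 other basement membrane genes tested, 0 and 0 were called by edgeR in LV, with or without the replicate block, and the LV medians were 0.07 and 0.12. In LV they summed to 2434 ± 89.8 CPM without storage (SD, n = 3), 2452 ± 143 after 4 h, and 2386 ± 67.4 after 8 h.

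Of 12 collagen receptors tested, 0, 2, 0, and 5 were called higher (medians 0.09, 0.23, 0.09, and 0.24), in RV at 8 h led by Itga2 2.02, Mrc1 1.05, Adgrg1 0.95, and Adgrg6 0.86. Of 16 collagenases, gelatinases, and inhibitors, 4, 4, 4, and 5 were called higher (medians 0.13, 0.25, 0.06, and 0.50), at 8 h Timp1 3.79, Mmp13 2.84, Mmp3 1.80, and Mmp14 1.60 in LV and Timp1 4.73, Mmp13 4.35, Mmp3 2.08, and Mmp14 1.72 in RV. Of 23 genes for TGF-beta ligands, receptors, and immediate targets, 2, 5, 5, and 10 were called higher (medians 0.12, 0.13, 0.19, and 0.31), at 8 h led by Id2 1.29, Skil 1.01, Ltbp2 0.96, and Tgfb1 0.86 in LV and with Skil 1.68, Id2 1.44, and Tgfb1 1.36 among those in RV. Without the replicate block, Colgalt2 was the one gene of the lists of both paragraphs called lower against 0 h. With it the RV counts called higher at 4 h were 2 for synthesis, 5 for processing, and 1 for receptors, and of the collagenases, gelatinases, and inhibitors 6 were called higher and 1 lower in RV at 8 h. In LV the block gave 2 and 3 for synthesis at 4 and 8 h, 5 for processing at 8 h, and 3 for the TGF-beta genes at 4 h. With the block, 3.86% and 8.1% of all genes were called higher in LV at 4 and 8 h. Over all genes tested the medians were 0.00, -0.02, 0.00, and -0.07. What part these genes had in the collagen levels was not tested.

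Marker genes of cell types were summed in each library, since collagen transcripts come from several cell types. Beside the marker calls below, 2.40%, 5.46%, 6.17%, and 13.0% of all genes were called higher and 0.398%, 1.26%, 3.91%, and 5.26% lower, and with the replicate block 8.45% and 15.5% higher and 790 and 1288 of 14622 genes lower in RV. In LV the block gave 562 and 1179 of 14564 genes higher and 100 and 361 lower. The 7 fibroblast markers, with Dcn the most abundant, summed to 514, 598, and 622 CPM at 0 h, 729, 581, and 527 at 4 h, and 833, 633, and 709 at 8 h in LV, and to 634, 739, and 772 CPM at 0 h, 809, 674, and 722 at 4 h, and 1261, 718, and 846 at 8 h in RV, where RV 8 h replicate 1 was the highest. Among them Tcf21 alone was called, higher in RV at 8 h (0.98), and the medians were 0.11, 0.40, 0.06, and 0.45 in the order given above. The 8 endothelial markers, with Fabp4 the most abundant, summed to 943, 992, and 1310 CPM at 0 h, 1216, 1040, and 660.5 at 4 h, and 1474, 1059, and 993 at 8 h in LV and to 904, 871, and 1414 CPM at 0 h, 1183, 915, and 572 at 4 h, and 1487, 901, and 1311 at 8 h in RV, the lowest library of each ventricle being 4 h replicate 3, and Tek was called lower in RV at 4 h (-0.72). With the replicate block that call was lost, and 1 endothelial marker was called higher in RV at 4 h and 1 at 8 h. The endothelial medians were -0.139, 0.213, -0.229, and 0.258. In RV at 4 and 8 h, Cldn5 was at 1.39 and 1.11 and Kdr at -0.89 and -0.84, without a call in the fit without the block. The 9 mural markers, with Rgs5 the most abundant, summed to 1093, 1228, and 1170 CPM at 0 h, 1149, 1107, and 899.8 at 4 h, and 1249, 1173, and 1150 at 8 h in LV and to 1064, 1204, and 1229 CPM at 0 h, 1130, 1052, and 999.5 at 4 h, and 1265, 1189, and 1450 at 8 h in RV, with medians of -0.19, 0.22, -0.11, and 0.16. Among them Kcnj8, Notch3, and Pdgfrb were called lower in RV at 4 h (-1.32, -0.81, and -0.70), and Kcnj8 and Notch3 at 8 h (-1.48 and -0.63). Not called in RV at 8 h were Cnn1 (0.85), Tagln (0.76), Rgs5 (0.58), Myh11 (0.43), Acta2 (0.16), Abcc9 (-0.45), and Pdgfrb (-0.55), and with the replicate block 2 mural markers were called higher there and 2 lower. The block also called 1 mural marker lower in LV at 4 h. The 7 cardiomyocyte markers summed to 67070, 58940, and 55690 CPM at 0 h, 60530, 54490, and 61900 at 4 h, and 46680, 49460, and 41310 at 8 h in LV and to 66700, 60950, and 58570 CPM at 0 h, 61460, 58410, and 61200 at 4 h, and 47310, 55370, and 27780 at 8 h in RV, so that in both ventricles every 8 h library lay below every 0 h library, with medians of 0.02, -0.18, 0.01, and -0.37. Among them Myh6 was called lower in LV at 8 h (-0.64), and -0.65 in RV was not called. With the replicate block 2 cardiomyocyte markers were called lower in LV at 8 h. No atrial, mesothelial, or adipocyte marker was called against 0 h, but with the replicate block 1 mesothelial marker was called higher in RV at 4 h and 1 at 8 h.

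Of the 7 macrophage markers, 0, 1, 0, and 4 were called higher, beside the shares over all genes above, Fcgr1 in LV at 8 h (2.81) and Fcgr1, Mrc1, Adgre1, and C1qb in RV at 8 h (2.81, 1.05, 0.91, and 0.82). The macrophage medians were 0.295, 0.523, 0.246, and 0.823. Csf1r was at -0.165, -0.149, -0.313, and -0.141 and C1qa at -0.219 in RV at 4 h, without a call. Fcgr1 was highest in the stored libraries numbered 3. There it stood at 10.1 and 13.55 CPM in LV and 10.6 and 17.0 CPM in RV at 4 and 8 h, against 1.28 to 4.65 CPM in the other stored libraries. Of the neutrophil markers Csf3r was called higher in LV (1.72 and 2.52) and RV (1.83 and 2.88). S100a8 and S100a9 were called higher in LV at 8 h, where they stood at 3.08, 0.712, and 0.814 and at 6.38, 0.949, and 1.96 CPM, against 0, 0.0338, and 0 and 0.0207, 0, and 0.0622 without storage, so the size of their change was not measured well, and they did not pass the filter for tests in RV. The Schwann cell markers Kcna1 and Cdh19 were called lower in RV at 4 h (-1.13 and -0.90). With the replicate block 3 Schwann cell markers were called lower in RV at 4 h and 1 at 8 h, and 1 macrophage marker was called higher in RV at 4 h. The block called 1 macrophage marker higher in LV at 4 h and 2 at 8 h. Cartilage and valve markers were called higher for Comp in LV (0.97 and 1.12) and for Sox9 (1.42 and 1.97) and Chad (at 8 h, 2.37) in RV. Mrc1 is also among the receptors above and Comp among the fibril-associated proteins. Which cell types carried the collagen differences was not tested, and changes in cell numbers and in transcripts per cell cannot be told apart here. With 3 libraries in each group, differences may have been missed, and some that were not called were larger than some that were.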

How the data were processed

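The values used were the estimated counts that the authors deposited for each transcript in 18 abundance files, with the deposited TPM used only for levels and the deposited effective lengths used only for length offsets. The submitters' notes name kallisto with default parameters, and the labels describe a directional library kit. Estimated counts were summed over the transcripts of each gene in GENCODE M21 (GRCm38) and rounded to whole numbers for testing. Of 111462 transcripts, 1259 had no gene in the annotation, which held at most 0.383% of the counts of a library.

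Libraries were scaled by TMM and genes kept by filterByExpr, with no pseudocount added to tested values. Storage times were compared within a ventricle in fits of 9 libraries, and ventricles and the interaction in a fit of 18, with the quasi-likelihood test of edgeR and Benjamini-Hochberg adjustment over all genes tested. Genes were called when the fold change was over 1.5 and the adjusted p under 0.1. DESeq2 on the same genes was the other tool. Tools were R 4.3.3, edgeR 4.0.16, limma 3.58.1, DESeq2 1.42.0, Python 3.11.15, pandas 2.3.3, numpy 2.4.6, and matplotlib 3.10.9.

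Values in every library were given for each collagen gene called in any of the 10 comparisons and for Col1a1, Col1a2, Col3a1, Col4a1, Col4a2, Col5a1, Col5a2, Col6a1, Col6a2, Col6a3, Col8a1, Col15a1, and Col18a1. The gene lists were written from general knowledge, and members and lists were chosen with earlier results of these data known. Some results of the gene lists, among them the RV calls of other basement membrane genes, are not reported here. Alternatives changed the tool, length offsets, normalization, filter, mitochondrial genes, pairing, thresholds, and libraries, and 1 of them (stored libraries numbered 3 left out) was added after the values were seen.

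The labels do not state that equal replicate numbers came from 1 heart, which could hold only for LV and RV of the same storage time. Between same-numbered libraries of LV and RV, the correlation of log2 levels after removing group means was 0.325 to 0.697, against -0.542 to 0.165 between differently numbered ones, and pairs of RV times reached 0.111 or more. Pairs of LV at 0 h with 4 or 8 h had values down to -0.019. The LV fits with the replicate block paired these libraries all the same, so their calls rest on a pairing that these correlations did not show.

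Each group had 3 libraries, the 0 h libraries served both storage times, and all hearts were flushed and perfused. Cold storage and the perfusion that followed it cannot be told apart, nor can cell composition and transcript levels per cell. Estimated counts depend on how reads fitting several transcripts were divided, which was done before deposit.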

Additional observations from a re-analysis of the deposited data

How the results depend on the processing

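The counts of collagen genes called moved with the choices made. In LV at 4 h the count was 3, and it was 1 at an adjusted p under 0.05, 5 by DESeq2, 5 by DESeq2 with length offsets, 5 with the replicate block (adding Col12a1 and Col5a3), 7 without the stored libraries numbered 3, and 0 to 4 when each library was left out in turn. In LV at 8 h it was 5, and 9 by DESeq2, 11 with its length offsets, 9 with the block (adding Col12a1, Col9a3, Col5a3, and Col20a1), 8 without the stored libraries numbered 3, and from 1 (without LV 0 h replicate 2) to 10 (without LV 8 h replicate 2). In RV at 4 h it was 1, and 0 at an adjusted p under 0.05, 4 by DESeq2, 4 with its length offsets, 2 without a filter, 4 with the block, 2 with all 18 libraries in the fit, 5 without the stored libraries numbered 3, and 0 to 4 when each library was left out. In RV at 8 h it was 10, and from 4 (without RV 0 h replicate 2 or 3) to 17 (without RV 8 h replicate 2), with 6 without RV 8 h replicate 3. The number of all genes called higher moved too, in LV at 4 h from 349 to 699 by DESeq2, 714 with its length offsets, 562 with the block, and 660 without the stored libraries numbered 3. In the same order it moved in LV at 8 h from 795 to 1180, 1115, 1179, and 695, and in RV at 4 h from 902 to 1209, 1184, 1236, and 1189, with 985 without a filter and 1071 with all 18 libraries. The number of all genes called at an adjusted p under 0.05 is not given, so the counts of collagen genes there cannot be set beside it. Leaving out 1 library moved the share of all genes called higher from 2.40% to between 0.0945% and 4.53% in LV at 4 h, from 5.46% to between 0.878% and 9.59% in LV at 8 h, from 6.17% to between 1.57% and 8.22% in RV at 4 h, and from 13.0% to between 6.86% and 17.5% in RV at 8 h. Between 8 and 4 h in RV the count of collagen genes was 0, and 1 by DESeq2, where 0.335% of all genes were called. It was also 1 with the length offsets of DESeq2, for which the share of all genes is not given. Between the ventricles it was 0, and with the block 1 at 0 h, 3 at 4 h, and 5 at 8 h, where DESeq2 gave 1 and leaving out LV 8 h replicate 3 gave 1. The shares of all genes called are given in the Results for the block and for DESeq2, but not for the fit without LV 8 h replicate 3. The log2 ratio of the collagen share of the library was 0.36 at 8 h in LV and 0.47 in RV as TPM, and 0.68 and 0.86 as CPM. DESeq2 in LV at 4 h split its calls over all genes as 75.2% higher, against 85.7% by edgeR. Of the 19 calls of named genes, none reversed in sign, and 68 of 342 refits lost a call. Besides the calls given here and beside the results, the block changed no other call of a collagen gene.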
